A study of Mus musculus with 12 samples.

Results

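A set of 52 genes for mitosis and the kinetochore was followed through RNA-seq of mouse neural stem/progenitor cells (NSPCs) with and without Ythdf2, a reader protein that binds m6A-modified mRNA. The genes were taken by name from a fixed list of mitotic kinases, checkpoint, kinetochore, spindle, cytokinesis and chromosome condensation genes, with the kinesin motors left out. All 52 were found among the 24525 genes counted, and all 52 passed the filter on low counts that left 13112 genes for testing. The list was not built from measured values, but it was drawn up with earlier results of these data known.

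The 3 wild-type and 3 Ythdf2-/- libraries were the input mRNA of neurosphere cultures from C57BL/6 embryos at E14.5, at passage P1, with no treatment. Every culture received EGF at 20 ng/ml and bFGF at 10 ng/ml. The null allele came from LoxP sites around the 5′ UTR and exon 1 of Ythdf2, removed by a Cre expressed in the whole body, so the gene was lost in every tissue from the germline on and not in NSPCs alone. Neither the number of embryos behind a culture nor its litter was given in the labels, so p-values measure only the spread between these cultures.

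Entry into mitosis is driven by Cdk1 bound to A- and B-type cyclins, and the Aurora and Polo kinases then guide centrosome, spindle and chromosome changes. Kinetochores are protein assemblies built on centromeres that hold the spindle fibres, and the spindle checkpoint blocks the anaphase-promoting complex until every kinetochore is attached. Most of these transcripts are made in late S phase, G2 and mitosis and are scarce in cells that do not divide, so their summed level is widely used as a sign of proliferation. Neural progenitors of the embryonic forebrain divide actively, and EGF and bFGF keep them dividing in culture.

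Promoters of many such genes carry a CHR element (cell cycle genes homology region, TTTGAA or TTCGAA), which is bound by the MuvB complexes, often with CCAAT boxes bound by NF-Y nearby. RefSeq promoter windows of the mouse build GRCm38.p6, from 250 bases before to 50 bases after a start, were at hand for 44 of the 52 genes. The windows of 30 of these, 68.2%, held a CHR element on either strand, against 13.2% of the 10129 windows of genes tested and 19.4% of all 27025 windows. CCAAT was found on either strand in 77.3% of the members' windows and in 39.4% of those of genes tested. Both elements stood together in 63.6% and in 5.9%. E2F elements, searched on either strand with the letters TTTCGCG, with the alternative letters TTTGGCG and also with the letters TTTCCCG, occurred in 15.9% of the members' windows and in 10.0% of those of genes tested. Hits of different motifs could overlap at their ends and were counted for each, and a match describes letters and not binding. The stretches below, each of 30 bases read 5′ to 3′ on the gene's own strand, show CHR elements upstream of the start in capitals. A CHR on the opposite strand reads TTCAAA. They belong to members whose levels are given below.
Cdk1 (chr10:69352966-69352995, minus strand): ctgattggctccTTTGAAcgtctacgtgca
Ccnb2 (chr9:70421704-70421733, minus strand): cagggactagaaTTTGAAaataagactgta
Cdc20 (chr4:118437344-118437373, minus strand): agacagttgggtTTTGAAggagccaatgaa
Ube2c (chr2:164769888-164769917, plus strand): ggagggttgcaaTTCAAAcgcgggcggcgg
Mki67 (chr7:135716478-135716507, minus strand): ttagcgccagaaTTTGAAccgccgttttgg
Top2a (chr11:99024351-99024380, minus strand): ctattggtccatTTTGAAgattctcccgcc
Top2a (chr11:99024312-99024341, minus strand): ctaattggtttaTTCGAAaaggcggtcttt
Bub3 (chr7:131560315-131560344, plus strand): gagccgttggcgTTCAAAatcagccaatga
Smc2 (chr4:52439064-52439093, plus strand): tcgctttccatgTTCAAAacggtatagtct

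The Cdk1 and both Top2a stretches also hold a CCAAT box in reverse (attgg) before the CHR, and the Cdc20 and Bub3 stretches a forward box (ccaat) after it. Of the 41 CHR elements in the windows, 22 lay upstream of the start, at a median of -84.5 bases, and 19 downstream, which put the median of all 41 at -9.0 bases. Of the 69 CCAAT boxes, 64 lay upstream, at a median of -78.5 bases, and the median of all was -71.0 bases. The windows of Plk4, Mad2l1, Pttg1, Knstrn, Nuf2 and Ncaph held none of the 3 kinds of element.

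**Figure D1:**
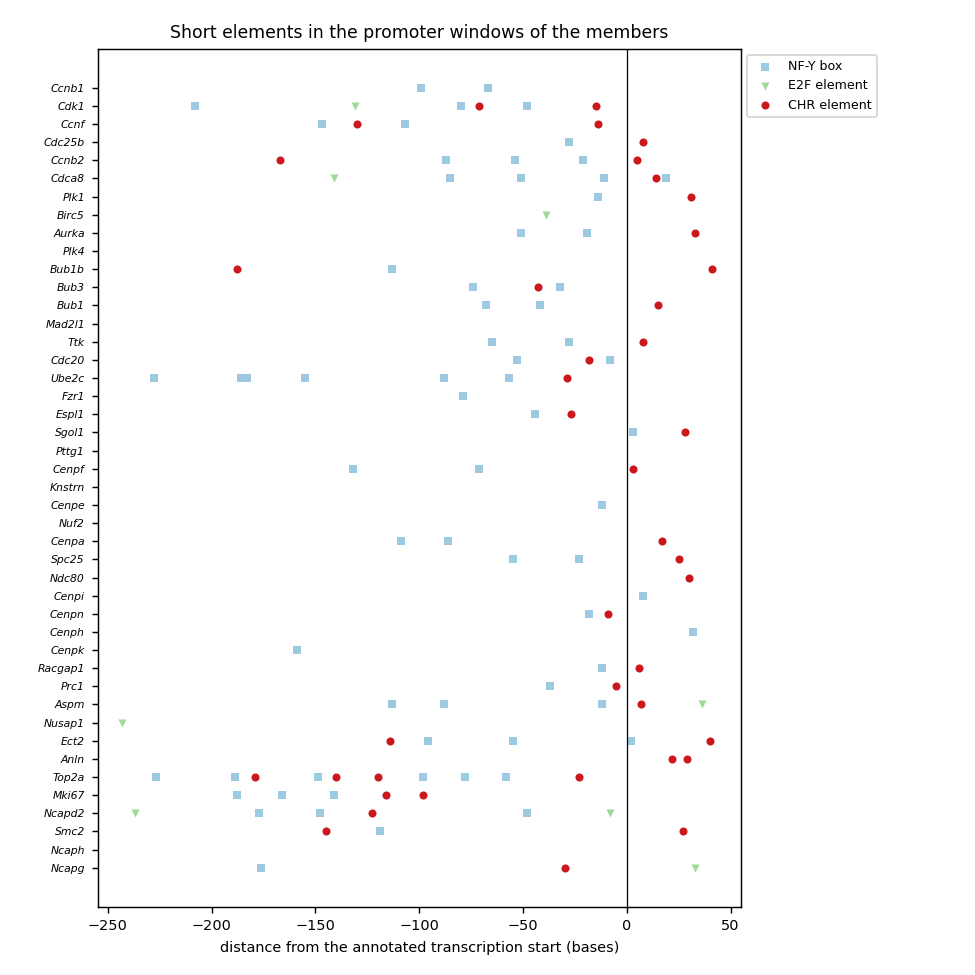
Positions of CHR elements (circles), NF-Y boxes (squares) and E2F elements (triangles) in the promoter windows of the 44 members that had one, in bases from the annotated start at 0. Of the 44 windows, 30 held a CHR element and 34 an NF-Y box, most of the latter upstream of the start.

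Sequencing gave 11029827 to 13185778 counted reads per library. Ythdf2, as the check of the labels, was at 78.9 ± 10.9 CPM (counts per 1000000 counted reads, scaled by edgeR's TMM factors) in wild type and at 12.5 ± 1.91 CPM in Ythdf2-/- (SD, n = 3 each). Its log2 fold change was -2.66, with a standard error of 0.183. edgeR's quasi-likelihood test gave it an adjusted p of 0.0547 over all 6 libraries and of 0.0203 without wild-type replicate 3. That library stood apart: its mean Spearman correlation with the other libraries was 0.900, against 0.962 to 0.970 for each of those 5. Reads on 4 Y-linked genes numbered 1111 and 1638 in wild-type replicates 1 and 2 and 2147 in Ythdf2-/- replicate 3, and 0 or 1 in the other 3 libraries, so wild-type replicate 3 also differed from its own group in this. Results are therefore given with and without wild-type replicate 3. Over the remaining 5 libraries, genotype and Y-linked reads are partly confounded, since no wild-type library without such reads is left.

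Mitotic transcripts were abundant in 5 of the 6 libraries and nearly missing from the third wild-type culture. The 52 genes summed to 7024, 6198 and 430.0 CPM in wild-type replicates 1, 2 and 3, and to 4719, 6247 and 5341 CPM in Ythdf2-/- replicates 1, 2 and 3. They took 0.616% and 0.701% of counted reads in the other wild-type libraries, 0.471% to 0.641% in the Ythdf2-/- libraries and 0.0426% in wild-type replicate 3. All 52 were lowest in this library, as were 34.4% of all genes tested. In 42 of the 52 it held less than 10% of the lowest of the other 5 libraries, and 1.55% of all genes tested did. The median over the 52 was 3.87%, and 45 of them were under 10 CPM there. In bulk RNA, fewer dividing cells and less RNA per cell cannot be told apart.

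The authors' second table for each library, of FPKM (fragments per kilobase of transcript, scaled to sequencing depth), did not show this. Its expected counts came to 1.97% to 2.4% of the raw counts, and the 52 genes summed to 1436 FPKM in wild-type replicate 3 and to 1237 to 1507 FPKM in the other 5, with 28 members listed at 0 against 9 to 21. Its largest expected counts in that library were 244 for Spc24, 184 for Ncapg, 126 for Ccna2 and 54.4 for Prc1, where the raw counts were 9, 17, 36 and 65 reads. Exons of Ncapg, Ccna2 and Prc1 share 770, 378 and 776 bases with Lcorl, Exosc9 and Rccd1 on the opposite strand, while exons of Spc24, the highest of these, overlap no other annotated gene. Ythdf2 was listed at 0 in this table in 5 of 6 libraries, wild type included, and at 1 expected count in Ythdf2-/- replicate 3. The table therefore could not serve to check the genotype labels and was used only as an alternative. In all, exons of 12 members share bases with another gene, on the opposite strand for 10, and Ccnb1 and Ccnb2 have named pseudogenes. The strand and multi-mapping settings of the counting are not given in the sources used here, so values of these genes are less certain.

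**Figure D2:**
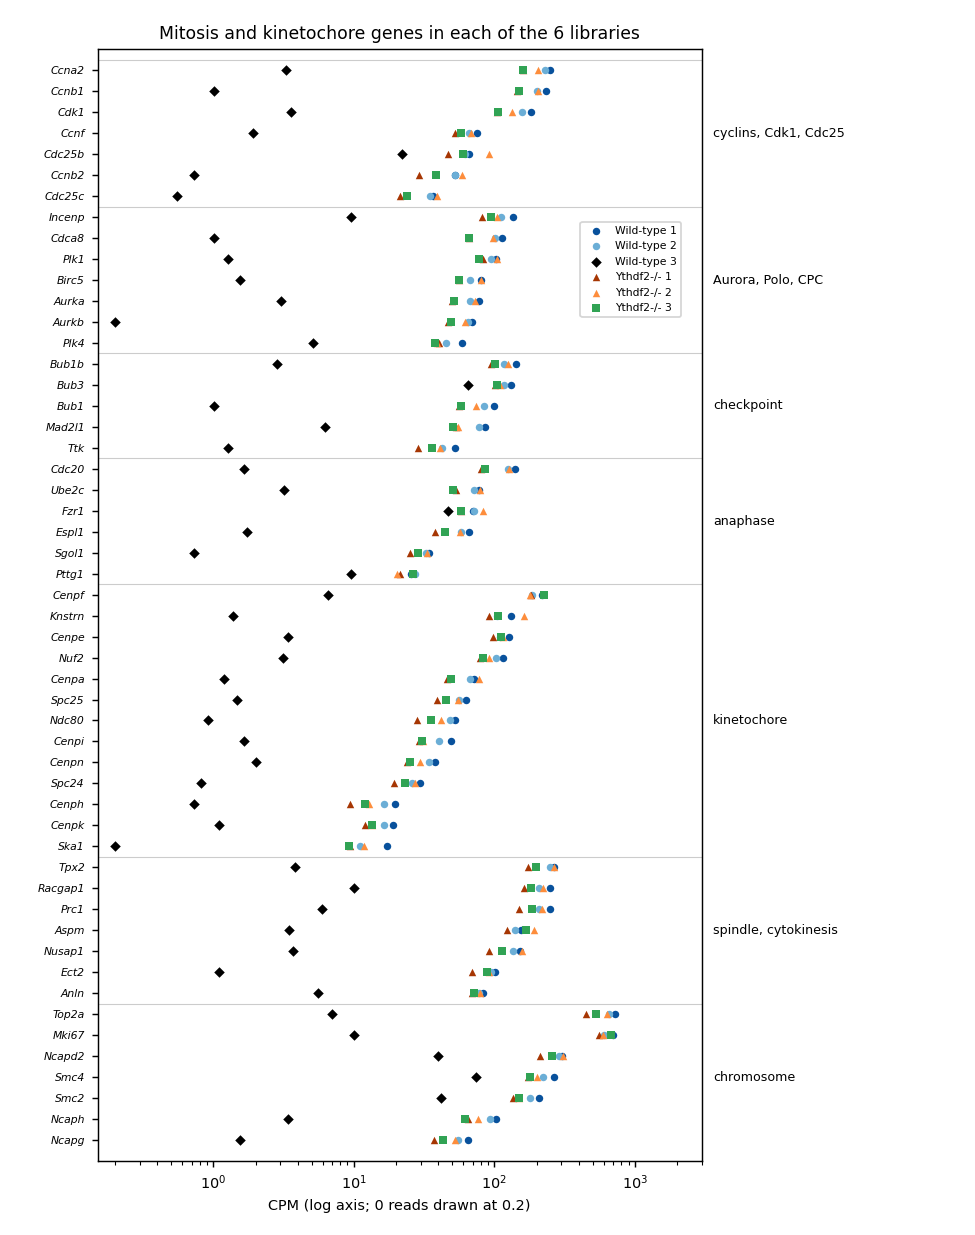
Level of each of the 52 genes in each library in CPM on a log axis, grouped by role, with genes of 0 reads drawn at 0.2. The diamonds of wild-type replicate 3 lie to the left of every other library for all 52 genes, while the other 5 libraries lie close together.

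Markers of other cell states moved with this library. The 10 neural progenitor markers summed to 5660 CPM in wild-type replicate 3 and to 8448 to 9457 CPM in the other 5 libraries, although 4 of the 10, Sox2, Hes5, Pax6 and Prom1, were highest there. Sox2, a progenitor transcription factor, was at 551 CPM against 316 to 426 CPM. The 8 neuron markers summed to 1908 against 1061 to 1292 CPM and the 6 astrocyte markers to 5415 against 1158 to 1933 CPM. Of the neuron and astrocyte lists, 6 and 3 genes were highest in wild-type replicate 3. The astrocyte gene Gfap reached 3046 CPM there and the immature neuron gene Dcx 315 CPM, while their highest values elsewhere were 625 and 13.1 CPM. Microglia and endothelial markers summed to at most 1.62 CPM in any library, with C1qa, Ptprc and Cldn5 at 0 reads in all of them. The 5 mesenchymal markers summed to 32.4 CPM in wild-type replicate 3, nearly all of it Pdgfrb at 31.8 CPM, against 0.666 to 4.26 CPM. The part of these markers in the level of the mitotic genes was not tested.

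The level in this library was uneven across the members, and 10 of them were at 10% or more of the lowest other library. Fzr1, the activator of the anaphase-promoting complex after mitosis and in G1, was the highest, at 47.1 CPM or 81.7% of the lowest other library. The checkpoint protein gene Bub3 followed at 64.6%, then the phosphatase gene Cdc25b at 47.6%, the securin gene Pttg1 at 47.4%, and the condensin subunit genes Smc4, Smc2 and Ncapd2 at 42.8%, 30.6% and 18.7%. Plk4, the kinase of centriole duplication, was at 13.6%, Mad2l1 at 12.2% and Incenp at 11.8%, the last above the 10% line, and Cenpk was the nearest below it at 9.14%. At the other end, the kinase gene Aurkb and the kinetochore gene Ska1 had 0 reads, which at this depth allows up to 3 reads or 0.275 CPM. Ccnb1, the main mitotic cyclin, had 1.01 CPM or 0.696% of the lowest other library. Promoter windows were at hand for 36 of the 42 genes under 10% and 8 of the 10 above, and CHR elements stood in 26 and 4 of them.

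**Figure D3:**
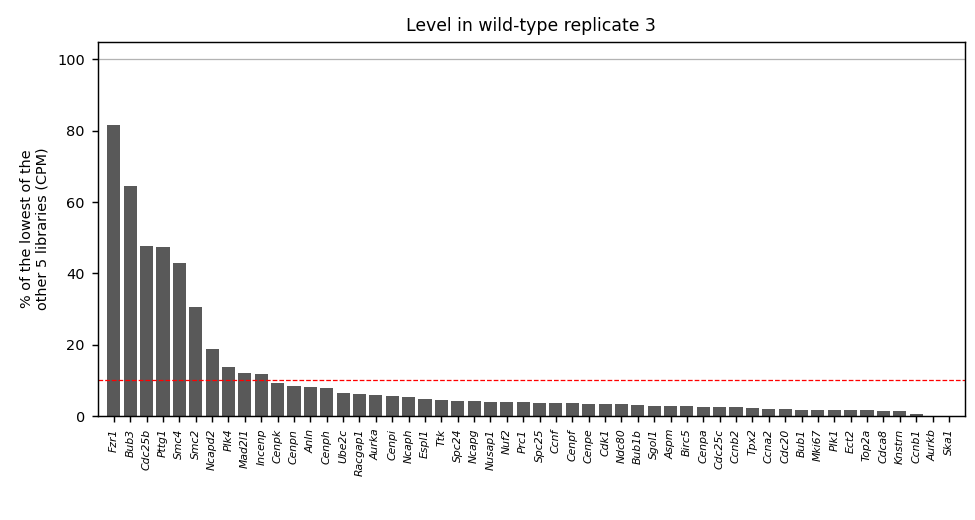
CPM of each gene in wild-type replicate 3 as a percentage of the lowest of the other 5 libraries, sorted, with the dashed line at 10%. All 52 bars stay below 100%, 10 reach past the dashed line, and Fzr1 is the highest at 81.7%.

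Compared with the whole group of wild-type libraries, no member passed the test for genotype. With all 6 libraries, 48 of the 52 had a log2 fold change (Ythdf2-/- over wild type) above 0, against 48.1% of all genes tested, with a median of 0.22 and a range of -0.10 to 0.69, where the median over all genes was -0.01. None passed an adjusted p of 0.05 by edgeR, as no gene did, or by DESeq2, which called 0.236% of all genes. None passed an unadjusted p of 0.05 by either tool, and 3.63% of all genes did by edgeR and 4.27% by DESeq2. For no member did the groups part, while they did for 5.24% of genes with Ythdf2-/- higher and 4.92% with it lower. The standard errors reached 1.34 on the log2 scale, for Aurkb, and the common biological coefficient of variation that edgeR fitted fell from 0.332 with all 6 libraries to 0.181 without wild-type replicate 3.

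Without wild-type replicate 3 the direction turned. Only 3 of the 52, Aspm at 0.12, Cdc25b at 0.04 and Knstrn at 0.03, kept a log2 fold change above 0 (51.7% of all genes did), and 45 turned from above to below 0. The median became -0.33, with a range of -0.65 to 0.12, where the median over all genes was 0.01. At an unadjusted p under 0.05, 19 of the 52 were lower in Ythdf2-/- and none higher, against 8.58% and 8.03% of the 13283 genes tested. By edgeR no member passed after adjustment (lowest adjusted p 0.151), as 0.0151% of all genes did with a lower level. DESeq2, chosen as a second test of these 5 libraries after the data had been seen, called 2 members lower, Mad2l1 and Cenpi, where it called 1.51% of all genes lower. At an unadjusted p under 0.05 it had 17 members lower, against 7.06% of all genes. The 3 Ythdf2-/- libraries lay wholly below both remaining wild-type libraries in 24 of the 52, against 20.1% of all genes, and wholly above in none, against 18.8%.

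**Figure D4:**
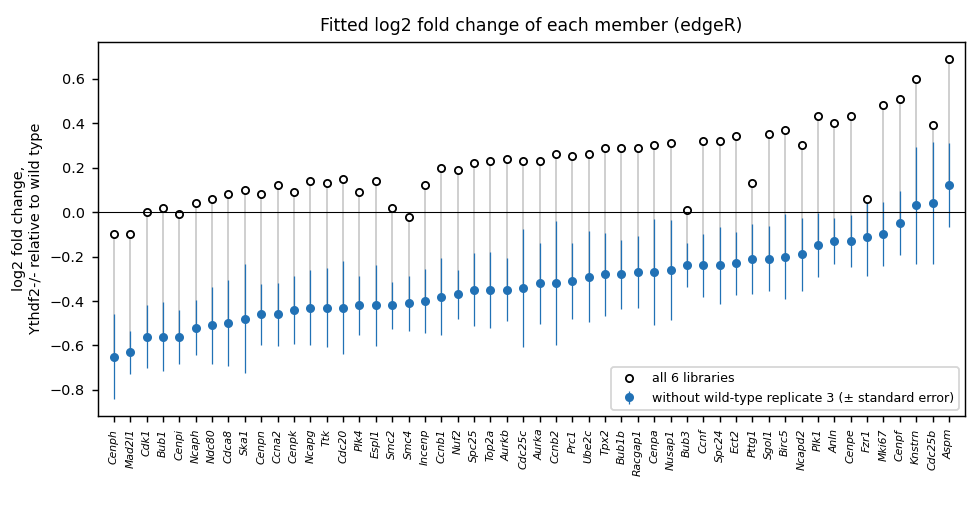
Fitted log2 fold change of each gene (Ythdf2-/- over wild type) by edgeR with all 6 libraries (open circles) and without wild-type replicate 3 (filled circles, bars of 1 standard error), sorted by the latter. Every filled circle lies below its open circle, and 3 of the 52 filled circles lie above 0.

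The Ythdf2-/- libraries did not move together. Relative to the mean of wild-type replicates 1 and 2, the median member stood at 68.6% in Ythdf2-/- replicate 1, at 93.0% in replicate 2 and at 76.0% in replicate 3. Replicate 1 was below both wild-type libraries in all 52 genes and replicate 3 in 46, against 42.3% and 42.9% of all genes. Replicate 2 was below both in 27 and above both in 12, against 42.7% and 43.3%. Replicates 1 and 3 were both below in 46 genes, as in 29.7% of all genes tested. Ythdf2-/- replicate 2 exceeded the other two of its group in 47 of the 52, against 40.6% of all genes. The remaining wild-type cultures also differed slightly, since replicate 1 was above replicate 2 in 50 of 52 genes, with a median ratio of 1.13 against 1.0 over all genes. Wild-type replicate 1 was the highest of the 6 libraries in 38 members and in 18.1% of all genes.

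**Figure D5:**
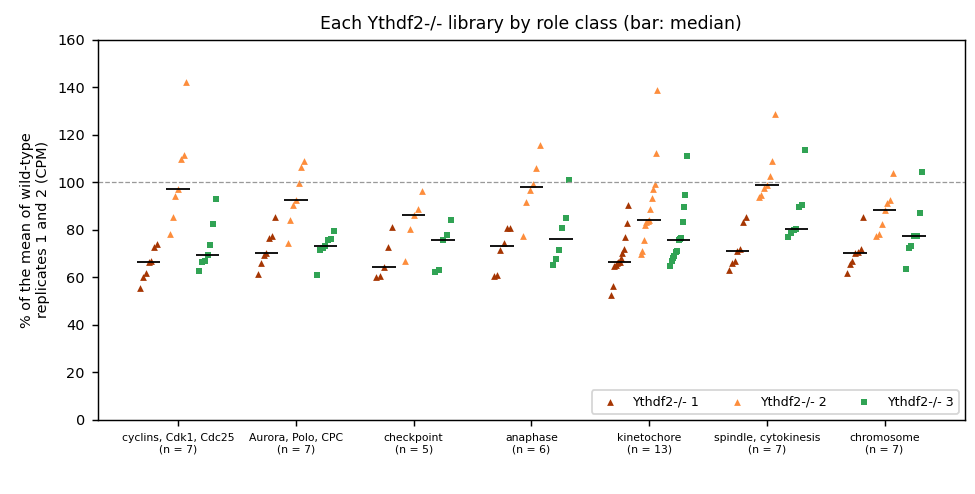
CPM of each gene in each Ythdf2-/- library as a percentage of the mean of wild-type replicates 1 and 2, by role, with the median as a bar and 100% as a dashed line. The median of replicate 2 lies nearest to 100% in every role, and the medians over all 52 genes are 68.6%, 93.0% and 76.0% for replicates 1, 2 and 3.

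Cyclins, Cdk1 and the Cdc25 phosphatases, which start mitosis, numbered 7. Cdk1 was at 182 and 156 CPM in wild-type replicates 1 and 2, at 3.57 CPM in replicate 3, and at 104, 132.5 and 106 CPM in Ythdf2-/- replicates 1 to 3. Without the third wild-type library the groups did not overlap, and its log2 fold change was -0.56 ± 0.140 (standard error, edgeR, unadjusted p = 0.00642, adjusted p = 0.190), against 0.00 ± 1.07 with all 6. Ccna2, the cyclin of S phase and early mitosis and the highest of the class in CPM, was at 250.2, 228 and 3.30 CPM in wild type and at 159, 204 and 159 CPM in Ythdf2-/-. Its values parted in the same way, with a log2 fold change of -0.46 ± 0.141 without wild-type replicate 3 (unadjusted p = 0.0167, adjusted p = 0.229) and 0.12 ± 1.15 with it. These were the 2 of the 7 below an unadjusted p of 0.05 without wild-type replicate 3. Of all genes tested, 8.58% were lower at that p. The class median moved from 0.23 to -0.34. Ccnb1 stood at 232, 202 and 1.01 CPM in wild type and at 145, 204 and 150.1 CPM in Ythdf2-/-, where the second Ythdf2-/- library lay between the wild-type values. Ccnb2, the other B-type cyclin of the list, was at 52.7, 52.2 and 0.732 CPM in wild type and at 29.1, 58.4 and 38.7 CPM in Ythdf2-/-, with overlap. Cdc25b, which activates Cdk1, was at 66.0, 61.9 and 22.2 CPM in wild type and at 46.6, 90.9 and 59.5 CPM in Ythdf2-/-. Its groups overlapped with and without the third library, with log2 fold changes of 0.39 ± 0.452 and 0.04 ± 0.274.

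Aurora and Polo kinases and the chromosomal passenger complex, which correct faulty attachments, gave a median of -0.35 without wild-type replicate 3 and 0.23 with it, and 4 of the 7 were below an unadjusted p of 0.05 without it. Those 4 were Aurkb, Plk4, Incenp and Cdca8, all lower in Ythdf2-/-, as 8.58% of all genes were at that p. Incenp, the scaffold of the complex, was at 136, 111 and 9.61 CPM in wild type and at 81.7, 104 and 94.2 CPM in Ythdf2-/-. All 3 of its Ythdf2-/- values lay below the pair of higher wild-type values, with a log2 fold change of -0.40 ± 0.143 (edgeR, adjusted p = 0.254) without the third library and 0.12 ± 0.804 with it. Aurkb, the kinase of the same complex, was at 69.0, 65.0 and 0 CPM and at 47.1, 62.0 and 49.0 CPM. Plk1, which acts at centrosomes and kinetochores, was at 102, 93.9 and 1.28 CPM in wild type and at 83.7, 104 and 77.9 CPM in Ythdf2-/-. Its groups overlapped, and its log2 fold change was the closest to 0 of the class without wild-type replicate 3, -0.15 ± 0.144, but the highest of the class with all 6 libraries, 0.43 ± 1.13.

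Without the third wild-type library, 3 of 5 spindle checkpoint genes were lower at an unadjusted p under 0.05, against 8.58% of all genes. They were Mad2l1, Bub1 and Ttk. The class median was -0.43 without that library, against 0.02 with all 6. Mad2l1, whose protein holds back Cdc20, was at 86.4, 78.3 and 6.22 CPM in wild type and at 53.0, 55.2 and 51.1 CPM in Ythdf2-/-. The Ythdf2-/- cultures agreed closely and all lay below the first pair of wild-type cultures. This gave the smallest p of the 52, with a log2 fold change of -0.63 ± 0.0961, an unadjusted p of 0.000506 and an adjusted p of 0.151 by edgeR and of 0.00172 by DESeq2 without wild-type replicate 3. With that library the value was -0.10 ± 0.802. Bub1b was at 143, 117 and 2.84 CPM in wild type and at 94.6, 125 and 101 CPM in Ythdf2-/-, with overlap. The log2 fold change of Bub1b was 0.29 ± 1.06 with all 6 libraries and -0.28 ± 0.155 without the third (edgeR, adjusted p = 0.406). Bub3 was at 131, 116 and 65.0 CPM and at 101, 109.9 and 104 CPM. Its log2 fold change was 0.01 ± 0.262 with all 6 libraries and -0.24 ± 0.0990 without the third, where the groups did not overlap.

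The genes of anaphase promotion and sister chromatid release, 6 in number, included none at an unadjusted p under 0.05 in either fit. Only Espl1, the separase gene, had groups that did not overlap without wild-type replicate 3, with Ythdf2-/- lower, as 20.1% of all genes did. The class median was -0.25 without that library and 0.14 with it. Cdc20, the mitotic activator of the anaphase-promoting complex, was at 139.8, 125 and 1.65 CPM in wild type and at 80.8, 128 and 86.2 CPM in Ythdf2-/-, so that the second Ythdf2-/- culture lay between the wild-type values. Its log2 fold change was 0.15 ± 1.16 with all 6 libraries and -0.43 ± 0.210 without the third wild-type library (edgeR, adjusted p = 0.357). Ube2c, the ubiquitin-conjugating enzyme of that complex, was at 77.5, 71.1 and 3.20 CPM in wild type and at 53.2, 78.8 and 50.4 CPM in Ythdf2-/-, with overlap as well. Sgol1, the shugoshin that guards centromeric cohesion, was at 34.3, 32.7 and 0.732 CPM and at 25.0, 33.2 and 28.5 CPM, again with overlap, and gave 0.35 ± 1.02 and -0.21 ± 0.147 (edgeR, adjusted p = 0.501 for the latter).

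Kinetochore and centromere genes, the largest class with 13, had a median of -0.37 without the third wild-type library and 0.19 with it. Without it, 6 were lower at an unadjusted p under 0.05, against 8.58% of all genes. These were Cenph, Cenpi, Cenpk, Cenpn, Ndc80 and Nuf2. The first 4 encode subunits of the inner kinetochore network on centromeric chromatin, and the other 2 encode a dimer that grips the microtubule. Cenpi was at 48.8, 40.5 and 1.65 CPM in wild type and at 29.0, 31.3 and 30.3 CPM in Ythdf2-/-. Its groups did not overlap without the third library, with a log2 fold change of -0.56 ± 0.121 (unadjusted p = 0.00318, adjusted p = 0.169 by edgeR and 0.0488 by DESeq2), and with it the value was -0.01 ± 0.941. Cenph had the lowest log2 fold change of the 52 without wild-type replicate 3, -0.65 ± 0.191 (adjusted p = 0.219, edgeR), from 19.7 and 16.4 CPM in wild-type replicates 1 and 2 to 9.47, 12.8 and 12.1 CPM in Ythdf2-/-. It was at 0.732 CPM in wild-type replicate 3, and with that library the value was -0.10 ± 0.918. Cenpf, a large outer kinetochore protein of G2 and mitosis, was at 219, 184 and 6.50 CPM in wild type and at 183, 179 and 224 CPM in Ythdf2-/-. Its log2 fold change was 0.51 ± 0.998 with all 6 libraries and -0.05 ± 0.143 without wild-type replicate 3. Knstrn, a spindle and kinetochore protein gene, was at 131, 105 and 1.37 CPM and at 90.8, 164 and 106 CPM, and its groups overlapped as well. It gave 0.60 ± 1.17 and 0.03 ± 0.263 (edgeR, adjusted p = 0.974 for the latter).

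Of the 7 spindle and cytokinesis genes, none was below an unadjusted p of 0.05 in either fit, and their median was -0.26 without the third wild-type library and 0.31 with it. Tpx2, an activator of Aurora A on the spindle, was at 267, 249 and 3.84 CPM in wild type and at 173, 265 and 199 CPM in Ythdf2-/-. Tpx2 had a log2 fold change of 0.29 ± 1.15 with all 6 libraries and -0.28 ± 0.187 without the third wild-type library (edgeR, adjusted p = 0.484). Aspm, a spindle pole protein known for its role in brain size, was at 156, 139.8 and 3.48 CPM in wild type and at 123, 190.1 and 168 CPM in Ythdf2-/-. It had the highest log2 fold change of the 52 in both fits, 0.69 ± 1.06 and 0.12 ± 0.188, neither past the test (edgeR, adjusted p = 0.999 and 0.785).

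Condensin and mitotic chromosome genes, the last 7, had a median of -0.41 without wild-type replicate 3 and 0.14 with it. Without it, 4 were lower at an unadjusted p under 0.05 by edgeR, against 8.58% of all genes. All 4 encode condensin subunits (Ncapg, Ncaph, Smc2 and Smc4). Another condensin subunit gene of the class, Ncapd2, was at -0.19 ± 0.165 without wild-type replicate 3, and its groups overlapped. Smc4 was at 267, 223 and 74.0 CPM in wild type and at 173, 202 and 179 CPM in Ythdf2-/-. The Ythdf2-/- cultures lay below wild-type replicates 1 and 2 but above replicate 3, with a log2 fold change of -0.41 ± 0.124 without replicate 3 (adjusted p = 0.226, edgeR) and -0.02 ± 0.441 with it. Ncaph was at 103, 92.6 and 3.39 CPM and at 65.2, 76.6 and 62.2 CPM, with a log2 fold change of -0.52 ± 0.123 without wild-type replicate 3 (adjusted p = 0.180, edgeR) and 0.04 ± 0.968 with it. Smc2 was at 207, 179 and 41.5 CPM and at 136, 149.8 and 149 CPM, with a log2 fold change of -0.42 ± 0.107 without wild-type replicate 3 (adjusted p = 0.192, edgeR) and 0.02 ± 0.538 with it. Mki67, the proliferation antigen that coats mitotic chromosomes, was at 698, 603 and 9.98 CPM in wild type and at 554, 594 and 677 CPM in Ythdf2-/-. Its log2 fold change was -0.10 ± 0.144 without the third wild-type culture and 0.48 ± 1.15 with it. Top2a, the topoisomerase that untangles sister DNA, was at 718, 649 and 6.96 CPM and at 447, 632 and 528 CPM. Per kilobase of transcript it was the highest of the 52, at 138 and 124 RPKM in wild-type replicates 1 and 2, followed by Ccnb1 at 100.0 and 87.3 RPKM, with Ska1 the lowest at 6.52 and 4.20 RPKM.

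Other genes of the same process were read from a list of 83, all found and tested. With all 6 libraries none passed an unadjusted p of 0.05, 55 were above and 28 below 0, and the median was 0.07. Without wild-type replicate 3 the median was -0.21, with 17 lower and 2 higher at an unadjusted p under 0.05, against 8.58% and 8.03% of all genes, and none after adjustment by edgeR. DESeq2 called 2 of them lower, against 1.51% of all genes. Their level in wild-type replicate 3 was less low, at a median of 56.0% of the lowest other library, with 15 of the 83 under 10%. Those included Foxm1, a transcription factor of G2 and mitosis, at 4.94 CPM against 88.9 to 123 CPM, and Knl1, the kinetochore scaffold, at 0.458 CPM against 40.1 to 58.0 CPM. The 12 subunits of the anaphase-promoting complex had a median of -0.02 without the third wild-type library and 0.02 with it. The 2 of the 83 that were higher at an unadjusted p under 0.05 without it were Nipbl at 0.28 and Numa1 at 0.35, a cohesin loader and a spindle pole protein.

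The 40 DNA replication genes, taken as a comparison from the phase before, also had their lowest value in wild-type replicate 3 in 40 of 40, against 34.4% of all genes, at a median of 29.0% of the lowest other library. With all 6 libraries 16 of them had a log2 fold change above 0 and 24 below, with a median of -0.03, and none was at an unadjusted p under 0.05. Without wild-type replicate 3, all 40 had a log2 fold change below 0, with a median of -0.48, and 34 were lower at an unadjusted p under 0.05, against 8.58% of all genes. DESeq2 called 15 of them lower, against 1.51%. None passed adjustment by edgeR. The difference between these lists and the 52 mitosis genes was not tested.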

How the data were processed

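Fragmented mRNA of the NSPC cultures went into stranded libraries. TopHat alignments to mm10 were counted per gene, and the authors deposited these raw counts. The submitters' processing notes name featureCounts, Bowtie2 2.2.9 and RSEM 1.2.15. The expected counts, TPM and FPKM of a second deposited table have RSEM's columns, while the methods describe RPKM from Cuffnorm.

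Groups came from the sample titles. The 6 m6A-IP samples are not analysed here. The 13112 genes that passed filterByExpr were tested with edgeR 4.0.16 (TMM, robust glmQLFit, glmQLFTest) under R 4.3.3. Genotype was the sole term, and p-values were adjusted over all of them by Benjamini-Hochberg. Standard errors of edgeR's log2 fold changes were derived, as the absolute log2 fold change over the square root of the test's F statistic. Alternatives used DESeq2 1.42.0, limma 3.58.1, other scaling and filters, single libraries left out, and limma on log2(FPKM + 1), which understates changes of low genes. CPM used TMM-scaled library sizes, and RPKM divided it by the transcript length in the FPKM table. Python 3.11.15 did the rest. The upper limit given for genes with 0 reads covers counting error only, while SDs and standard errors include the spread between cultures.

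Members and gene lists were chosen with earlier results of these data known. Values by library and log2 fold changes with standard errors were given at least for members that are highest in CPM or extreme in log2 fold change within a role, and, after their values were seen, for the 5 with the smallest p without wild-type replicate 3. On simulated counts for 13112 genes in 6 libraries, edgeR recovered 96% of genes changed 2-fold, and for 13283 genes without wild-type replicate 3 it recovered 85%, with 5.31% and 3.14% of calls false. The simulation gave every gene the same variation between libraries and held no library that stood apart. Its setting was below the fitted common coefficients of variation, 0.332 with all 6 libraries and 0.181 without wild-type replicate 3. These shares therefore do not carry over to the real comparisons. Nor do they describe the members, whose median standard error with all 6 libraries was 1.01 on the log2 scale, against 0.248 over all genes. An exact permutation test of 3 libraries against 3 cannot go below 0.1, and one of 2 against 3 cannot go below 0.2. A further marker list, beside those given for other cell types, is not reported here.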

Additional observations from a re-analysis of the deposited data

Results flagged for a closer look

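When libraries were split by their reads on 4 Y-linked genes, 46 of the 52 members were lower in Ythdf2-/- among libraries with such reads (Ythdf2-/- replicate 3 below wild-type replicates 1 and 2) and higher among those without (Ythdf2-/- replicates 1 and 2 above wild-type replicate 3). This was so for 19.6% of all genes tested. The opposite directions drew attention to it, and the difference was not tested. Among libraries without Y-linked reads, the only wild-type library is replicate 3, so its low level of mitotic transcripts and the split cannot be told apart. With a term for Y-linked reads in edgeR, the median log2 fold change of the members was 1.88, all 52 were above 0, and none passed an adjusted or an unadjusted p of 0.05.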

How the results depend on the processing

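No member passed an adjusted p of 0.05 under any of the 16 alternatives set at the start, and DESeq2 without wild-type replicate 3, chosen after seeing the data, called 2. The direction was not stable. The median log2 fold change of 0.22 turned to -0.33 without wild-type replicate 3, by edgeR and by DESeq2, and to -0.36 under limma-voom with sample quality weights, which gave that library a weight of 0.0957. It rose to 1.32 under limma-voom with no such weights, with all 52 above 0 and none at an unadjusted p under 0.05. Members above 0, 48 of 52, fell to 3 in both of those fits without the library, to 2 under quality weights and to 30 on FPKM. Members at an unadjusted p under 0.05 rose from 0 to 19 and 17 without it, and to 1 under quality weights. Leaving out 1 library at a time gave medians of -0.33 to 0.67, 3 to 52 members above 0 and 0 to 19 at an unadjusted p under 0.05. Without Ythdf2-/- replicate 2 the median was 0.06 with 33 above 0. The cause was not tested.

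Deviations of same-numbered libraries from their group means correlated at -0.254, -0.245 and -0.402. Such deviations are not independent within a group, and wild-type replicate 3 stood apart in its own. These values therefore cannot decide whether the replicate numbers pair the cultures. With the replicate block the median was 0.97, with 52 members above 0 and none called.

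Single members reversed as follows. Without wild-type replicate 3, the values were -0.46 for Ccna2, -0.40 for Incenp, -0.15 for Plk1, -0.24 for Bub3, -0.28 for Bub1b, -0.43 for Cdc20, -0.21 for Sgol1, -0.05 for Cenpf, -0.28 for Tpx2, -0.10 for Mki67, -0.52 for Ncaph, -0.56 for Cdk1 and -0.42 for Smc2. DESeq2 without it gave the same values to within 0.01, with -0.14 for Plk1, -0.09 for Mki67 and -0.41 for Smc2. Quality weights gave -0.43 for Ccna2, -0.22 for Cdc25b, -0.41 for Incenp, -0.11 for Plk1, -0.23 for Bub3, -0.26 for Bub1b, -0.50 for Cdc20, -0.24 for Sgol1, -0.08 for Knstrn, -0.36 for Tpx2, -0.03 for Mki67, -0.48 for Ncaph, -0.54 for Cdk1 and -0.40 for Smc2. On FPKM, Ccna2 was at -0.08, Cdc25b at -0.01, Plk1 at -0.12, Mad2l1 at 0.01, Cenpf at -0.48, Smc4 at 1.2 and Cenpi at 0.58. Without Ythdf2-/- replicate 2, Ccna2 was at -0.01, Bub3 at -0.02, Cdc20 at -0.09, Ncaph at -0.06 and Cdk1 at -0.11. Mad2l1, Cenph, Smc4 and Cenpi came to 0.57, 0.79, 0.18 and 0.93 under limma-voom, to 0.45, 0.50, 0.16 and 0.66 with the replicate block, to 1.11, 1.21, 0.44 and 1.47 when Y-linked reads entered the model, to 0.33, 0.41, 0.31 and 0.51 without wild-type replicate 1, and to 0.19, 0.16, 0.12 and 0.26 without replicate 2. Without Ythdf2-/- replicate 1, Cenph was at 0.02, Smc4 at 0.03 and Cenpi at 0.02. Cenpi was at 0.00 with library totals only, Cdk1 at -0.01 with RLE factors and by DESeq2 and at -0.00 with no filter, and Smc2 at -0.00 without Ythdf2-/- replicate 3. With 1 library left out, the upper ends, without wild-type replicate 1, were 0.59 for Ccna2, 0.63 for Incenp, 0.89 for Plk1, 0.21 for Bub3, 0.83 for Bub1b, 0.63 for Cdc20, 0.78 for Sgol1, 1.03 for Cenpf, 0.74 for Tpx2, 0.99 for Mki67, 0.50 for Ncaph, 0.51 for Cdk1 and 0.39 for Smc2, and the lower ends, without wild-type replicate 3, were -0.63 for Mad2l1, -0.65 for Cenph, -0.41 for Smc4 and -0.56 for Cenpi.

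Ythdf2 kept its direction except on FPKM, at 0.32, which rested on 1 expected count in Ythdf2-/- replicate 3. It passed an adjusted p of 0.05 with RLE factors (-2.67), no filter (-2.64), at least 10 reads in every library (-2.66), DESeq2 (-2.67), quality weights (-2.61), Y-linked reads in the model (-2.75) and without wild-type replicate 3 by either tool (-2.54), and ranged from -2.78 to -2.54 with 1 library left out.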
